A study of Mus musculus with 11 samples.

Results

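A set of 10 genes of pre-mRNA splicing control were followed through 11 hippocampal libraries of a mouse model of cortical stroke. They are 6 SR splicing factor genes (Srsf1, Srsf2, Srsf3, Srsf5, Srsf6 and Srsf7), the related factor gene Tra2a, and 3 genes of CDC-like kinases (Clk1, Clk2 and Clk4). They were picked by symbol, and each symbol matched 1 row, so that 10 of the 22377 genes listed were members. The choice rested on measured values. Srsf3 had been seen to stand lower with drug at 1 m, and Clk2 to stand lower at 7 d and 2 m than in naive mice. Those differences are therefore described here without a test.

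Total RNA of the whole hippocampus of male C57BL/6N mice had been profiled by cap analysis of gene expression (CAGE), a method that sequences where capped transcripts begin. In photothrombosis (PT), injected rose bengal (35 mg/kg) and LED light (565 nm, 200 mW, 30 minutes, a 3.5 mm circle over the left parietal lobe) produce a cortical infarct. The anti-seizure medicine levetiracetam (LEV), a ligand of SV2A on synaptic vesicles, was dissolved in drinking water (5 mg/mL). The 11 groups of 1 library were naive, and then the infarcted and the non-infarcted side of each of 5 PT conditions, namely 7 d LEV, 7 d, 1 m LEV, 1 m, and 2 m with LEV withdrawn. No mouse in the study was described as genetically modified, and all groups but naive had PT. The series text starts LEV 1 month after PT for 2 weeks and withdraws it for 1 week. The labels, however, name LEV libraries at 7 d and at 1 m, and a withdrawal of 2 weeks. How the 7 d LEV and 1 m LEV mice were dosed is therefore not known here, nor is the length of withdrawal. The labels do not say how many animals a library held, whether the sides share animals, or which of the study's ages (8 to 10 or 65 to 85 weeks) each library represents. Library totals ran from 13382623 to 22377376 reads, and levels are given as CPM, the number of reads from a gene relative to all reads of that library. On this scale a count of 0 allows up to 0.134 to 0.224 CPM.

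SR proteins bind short exonic and intronic RNA sequences through RNA recognition motifs, and recruit the splicing machinery through a tail rich in arginine and serine. SRPK kinases phosphorylate that tail in the cytoplasm so that the proteins enter the nucleus, and CLK kinases phosphorylate it further in the nucleus, which releases SR proteins from nuclear speckles. Many SR protein and CLK genes limit their own output by splicing part of their transcripts into forms that are degraded or held in the nucleus. In neurons, activity and temperature are known to alter the splicing of CLK transcripts. CAGE reads the 5′ end and does not see which exons follow, so such forms of a transcript were counted together.

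The promoters of the members with the widest ranges are shown because CAGE counts what starts there. Each sequence is the 250 bases before the gene's RefSeq start on GRCm38.p6, written 5′ to 3′ on the gene's own strand, with a CCAAT box (CCAAT, or ATTGG on the other strand) and a TATA box (TATAAA) in capitals. The windows are chr17:29032410-29032659 (+) for Srsf3, chr2:162931258-162931507 (+) for Srsf6 and chr3:89164545-89164794 (+) for Clk2.
Srsf3: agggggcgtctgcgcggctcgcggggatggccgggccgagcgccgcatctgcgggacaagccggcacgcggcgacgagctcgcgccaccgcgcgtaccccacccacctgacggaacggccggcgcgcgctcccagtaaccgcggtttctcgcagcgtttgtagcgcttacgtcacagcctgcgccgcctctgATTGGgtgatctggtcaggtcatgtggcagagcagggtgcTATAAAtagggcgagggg
Srsf6: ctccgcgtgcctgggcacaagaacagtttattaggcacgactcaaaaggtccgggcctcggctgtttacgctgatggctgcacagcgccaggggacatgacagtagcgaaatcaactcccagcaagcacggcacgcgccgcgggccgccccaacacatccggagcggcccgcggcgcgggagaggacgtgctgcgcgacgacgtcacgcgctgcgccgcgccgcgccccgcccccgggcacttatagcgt
Clk2: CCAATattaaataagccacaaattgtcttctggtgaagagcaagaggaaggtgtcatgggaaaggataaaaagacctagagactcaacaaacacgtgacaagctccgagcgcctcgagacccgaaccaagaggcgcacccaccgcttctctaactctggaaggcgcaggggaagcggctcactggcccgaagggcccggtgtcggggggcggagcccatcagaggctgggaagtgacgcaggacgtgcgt
Srsf3 holds a TATA box 18 bases before the RefSeq start and a CCAAT box on the other strand. Clk2 holds a CCAAT box at the far end of its window, and Srsf6 neither of these letters in its window.

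RefSeq held a promoter for 9 of the 10 members, all but Clk1. Searched on both strands, the GC box GGGCGG occurred in 8 of the 9 windows, against 32.7% of 32851 mouse promoters of the same length. The short cyclic AMP response letters TGACG occurred in 7 of 9, against 17.8% of all promoters. The full form TGACGTCA, which contains TGACG, occurred in Clk4 and Tra2a (1.55% of all promoters). CCAAT occurred in Srsf2, Srsf3, Clk2 and Tra2a (33.8%), TATAAA in Srsf2 and Srsf3 (12.4%), and the ETS letters CCGGAAGT in Srsf5 (2.88%). The motifs were chosen with the sequences in view, and the member windows had a GC content of 56.8% to 69.6%, against a median of 52.4% over all promoters. Srsf2 and Srsf3 both hold a CCAAT and a TATA box, and the highest to lowest ratio of their CPM over the libraries was 1.29 and 3.67.

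Before the members, the libraries themselves stood apart in ways that the labels do not name as a batch. The first principal component over 16057 genes with a mean of at least 1 CPM held 44.9% of the variance, and put naive and the 1 m libraries on one side and the 7 d and 2 m libraries on the other. Choroid plexus genes (6 of 6 in the table, none at 0 in any library) summed to 54.997 to 1773 CPM at 1 m and 3139 to 4796 CPM at 7 d. They summed to 4150.4 CPM in naive and, at 2 m, to 4004 CPM (infarcted) and 1257 CPM (non-infarcted), so they did not follow that split. The lowest libraries were 1 m infarcted (54.997 CPM) and 1 m LEV non-infarcted (102 CPM). Neuronal and hippocampal marker genes, 6 of 6 and 7 of 7 in the table, were present in every library (4321 to 5339 and 334 to 407 CPM summed).

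Srsf3, the smallest of the SR proteins, with roles in splicing, polyadenylation and RNA export, ranged more widely than any other SR gene examined. It had 111 CPM in the naive library, 166 and 169 CPM in the 7 d LEV libraries (infarcted side first here and below) and 178 and 197 CPM in the 7 d libraries. It had 53.6 and 71.2 CPM in the 1 m LEV libraries, 120.2 and 116 CPM in the 1 m libraries, and 195 and 192 CPM in the 2 m withdrawn libraries. Both 1 m LEV libraries lay below all other libraries, naive included, and the 7 d and 2 m libraries lay above all naive and 1 m ones. The highest was 3.67 times the lowest, a ratio that rests on the 1 m LEV values by which the gene was chosen.

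Srsf6, a regulator of alternative exons, had an order of its own. It stood at 87.4 CPM in naive, at 88.3 and 86.7 CPM in 7 d LEV and 92.0 and 83.0 CPM in 7 d. In 1 m LEV it had 121 and 109.7 CPM, in 1 m 83.3 and 84.0 CPM, and in 2 m withdrawn 52.6 and 42.2 CPM. The 1 m LEV pair was the highest and the 2 m pair the lowest of the 11, and the naive, 7 d and 1 m libraries without LEV lay within 83.0 to 92.0 CPM. Its highest to lowest ratio was 2.86.

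Srsf5, an SR protein gene known in rat liver as induced by insulin, had by far the most reads, at 594 CPM in naive. It had 655 and 627 CPM in 7 d LEV, 635 and 568.5 CPM in 7 d, 459 and 471 CPM in 1 m LEV, 606 and 583 CPM in 1 m, and 659.6 and 693 CPM in 2 m withdrawn. As for Srsf3, the 1 m LEV libraries were the lowest of the 11, but here the other naive, 7 d and 1 m libraries overlapped.

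Srsf7, an activator of exon inclusion and RNA export, was at 98.3 CPM in naive, its lowest library. It had 126 and 121 CPM in 7 d LEV, 133 and 121 CPM in 7 d, 99.1 and 103 CPM in 1 m LEV, 102 and 106 CPM in 1 m, and 136 and 127 CPM in 2 m withdrawn. The naive and 1 m libraries (98.3 to 106 CPM) lay below all 7 d and 2 m libraries. Srsf2, an SR protein that stays in the nucleus, split likewise. It had 164 CPM in naive, 179 and 187 CPM in 7 d LEV, 183 and 169.9 CPM in 7 d, 159 and 154 CPM in 1 m LEV, 154 and 166 CPM in 1 m, and 198 and 194 CPM in 2 m withdrawn.

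Srsf1, the founding member of the family, split the libraries by time in another way. It had 148 CPM in naive, 131 and 119 CPM in 7 d LEV, 125 and 130.0 CPM in 7 d, 141 and 149 CPM in 1 m LEV, 149 and 148 CPM in 1 m, and 155 and 149 CPM in 2 m withdrawn. The 4 libraries at 7 d were the lowest, and naive, 1 m and 2 m overlapped. Tra2a, a homologue of the fly Transformer 2 that binds GAA-rich exonic enhancers with SR proteins, had 38.1 CPM in naive, 43.9 and 46.3 CPM in 7 d LEV, 45.9 and 45.8 CPM in 7 d, 33.9 and 37.7 CPM in 1 m LEV, 39.8 and 39.0 CPM in 1 m, and 42.7 and 36.5 CPM in 2 m withdrawn. Its 4 libraries at 7 d were the highest of the 11.

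Among the kinases, Clk2, which phosphorylates SR proteins and is known in liver as an insulin-responsive kinase, had the widest range of the 10 members. It stood at 88.0 CPM in naive, 25.5 and 18.3 CPM in 7 d LEV, 23.4 and 22.7 CPM in 7 d, 61.8 and 51.8 CPM in 1 m LEV, 42.5 and 35.7 CPM in 1 m, and 13.1 and 13.6 CPM in 2 m withdrawn. Naive was the highest library and the 2 m pair the lowest, with no overlap between the 7 d, 1 m and 2 m libraries. The highest to lowest ratio was 6.70, and it rests on the naive and 2 m values by which the gene was chosen. Every library held at least 229 reads of Clk2, so counting error is small beside this range.

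Clk1, the kinase whose own transcript splicing responds to temperature and stress, had 43.2 CPM in naive, 53.0 and 52.3 CPM in 7 d LEV, 72.8 and 58.2 CPM in 7 d, 33.7 and 37.5 CPM in 1 m LEV, 36.4 and 39.7 CPM in 1 m, and 50.2 and 45.0 CPM in 2 m withdrawn. The 7 d libraries were all above the others and the 1 m libraries all below, with naive between. Clk4, its close relative, had 60.3 CPM in naive, 76.8 and 71.9 CPM in 7 d LEV, 83.6 and 75.2 CPM in 7 d, 63.0 and 55.2 CPM in 1 m LEV, 63.4 and 63.6 CPM in 1 m, and 79.3 and 79.7 CPM in 2 m withdrawn. Its naive and 1 m libraries lay below its 7 d and 2 m libraries, as for Srsf2, Srsf3 and Srsf7.

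**Figure D1:**
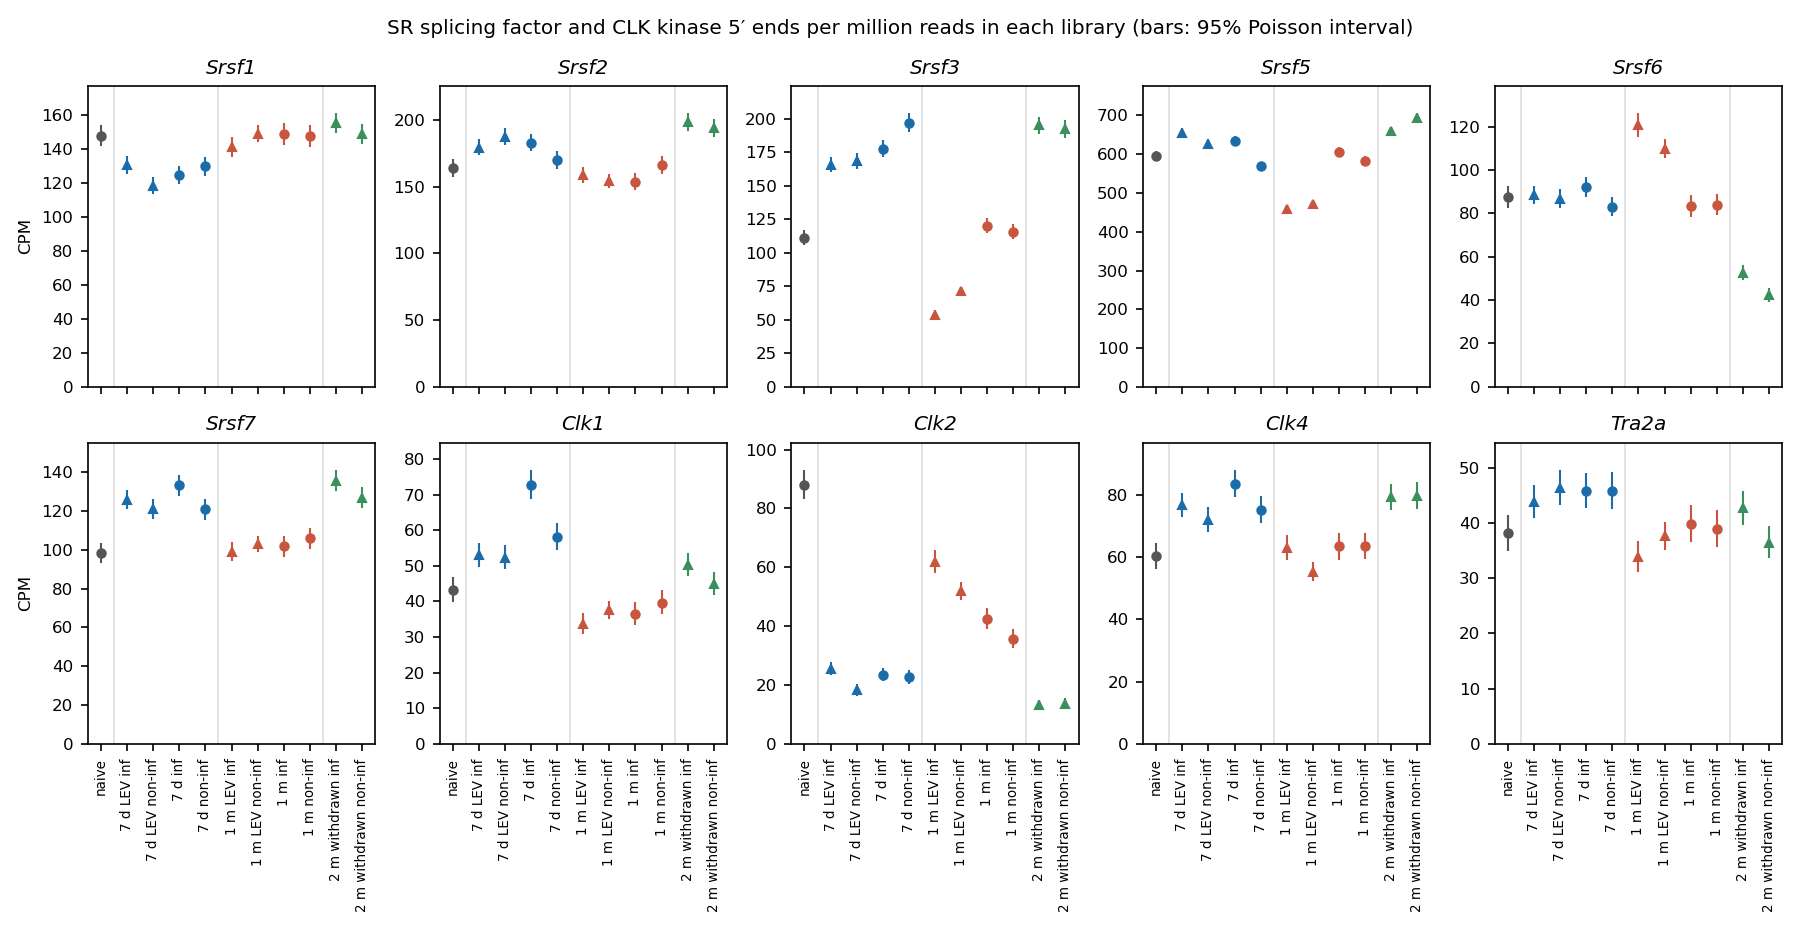
CPM of the 10 members (vertical axes) in the 11 libraries (horizontal axes, by time after PT, with LEV libraries as triangles and libraries without LEV as circles, the 2 m withdrawn pair also as triangles), with bars for exact 95% Poisson intervals of 1 library, which cover counting error only. Clk2 is highest in naive (88.0 CPM) and lowest at 2 m (13.1 and 13.6 CPM), while Srsf3 is lowest in the 1 m LEV libraries (53.6 and 71.2 CPM).

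The members sit on GRCm38 as follows, by GENCODE M21, and all are protein-coding. Srsf1 (ENSMUSG00000018379.17) lies at chr11:88047373-88053755, Srsf2 (ENSMUSG00000034120.18) at chr11:116849901-116853094 and Srsf3 (ENSMUSG00000071172.13) at chr17:29032628-29043373. Srsf5 (ENSMUSG00000021134.17) lies at chr12:80945504-80950507, Srsf6 (ENSMUSG00000016921.14) at chr2:162931528-162937121 and Srsf7 (ENSMUSG00000024097.11) at chr17:80200080-80207307. Clk1 (ENSMUSG00000026034.17) lies at chr1:58410189-58424066, Clk2 (ENSMUSG00000068917.12) at chr3:89164795-89176921, Clk4 (ENSMUSG00000020385.16) at chr11:51261730-51281766 and Tra2a (ENSMUSG00000029817.11) at chr6:49243924-49264033. Srsf1, Srsf2, Clk4 and Tra2a each overlap a gene on the other strand, and Clk4 also overlaps Gm25082, a miscellaneous RNA gene, on its own strand. The deposited gene names carry a strand, but the sources used here do not say whether reads were counted by strand. The counts of these members could therefore include reads of such neighbours, and for Gm25082 even if counted by strand. The RefSeq start of Clk4 lies more than 1 kb inside the GENCODE gene. That of Srsf3 also lies inside its GENCODE gene, and so does the TATA box marked in its window.

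The share of Clk2 among the kinases varied between libraries more than the sum of the 3 did, with 1 library a group and no test. Clk2 was chosen by its naive, 7 d and 2 m values, so this range was in part set by that choice. Together Clk1, Clk2 and Clk4 summed to 191 CPM in naive and 138 to 179.8 CPM in the 10 PT libraries. Clk2 supplied 46.0% of these reads in naive (95% Wilson interval 44.1% to 47.8%), 16.4% and 12.8% in 7 d LEV, and 13.0% and 14.6% in 7 d. It supplied 39.0% and 35.9% in 1 m LEV, 29.9% and 25.7% in 1 m, and 9.21% and 9.83% in 2 m withdrawn. A CAGE read stands for 1 capped end whatever the length of the gene, which is why shares between genes can be formed.

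In the SR family, Srsf3 supplied 9.24% of the reads of the 6 Srsf genes in naive, 12.3% and 12.9% in 7 d LEV, and 13.2% and 15.5% in 7 d. It supplied 5.19% and 6.73% in 1 m LEV, 9.90% and 9.63% in 1 m, and 13.97% and 13.8% in 2 m withdrawn. The low share in 1 m LEV restates the values by which Srsf3 was chosen. The 6 genes summed to 1203 CPM in naive. The sum ranged from 1032 CPM in 1 m LEV infarcted to 1397 CPM in both 2 m libraries.

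**Figure D2:**
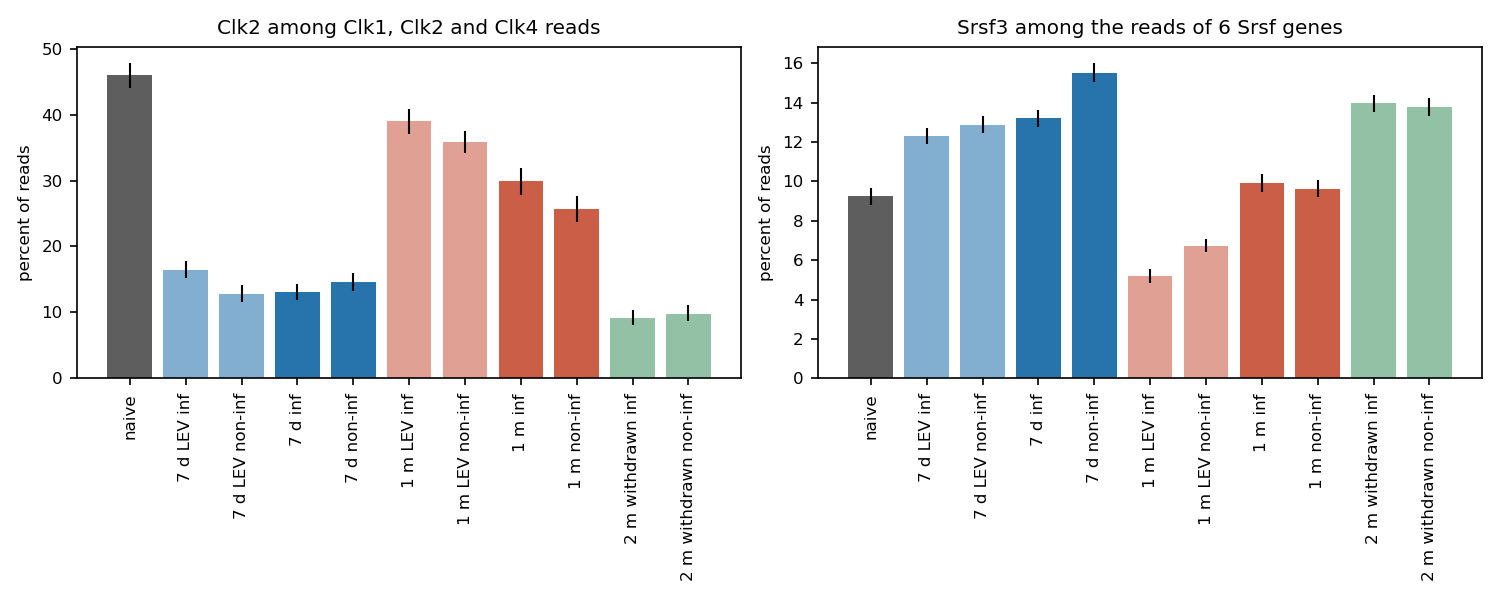
Percent of the reads of Clk1, Clk2 and Clk4 that fell to Clk2 (left) and percent of the reads of the 6 Srsf genes that fell to Srsf3 (right) in each of the 11 libraries, with 95% Wilson intervals for counting error as lines. The share of Clk2 falls below 17% in every 7 d and 2 m library, against 46.0% in naive, and the share of Srsf3 is lowest in the 1 m LEV pair (5.19% and 6.73%). Both genes were chosen by their values in these libraries.

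The first comparison set the infarcted against the non-infarcted hippocampus over the 5 PT conditions. No member passed the test between sides after adjustment over all genes. Before adjustment the 95% intervals of Clk2 and Srsf6 lay above 0. Clk2 had the largest difference, averaging 33.3 ± 19.1 CPM in infarcted-side and 28.4 ± 15.5 CPM in non-infarcted-side libraries (SD, 5 libraries a side), with a log2 difference of 0.19 (SE 0.07, 95% interval 0.03 to 0.35), above 0 in 4 of 5 pairs, and an adjusted p of 0.588 by limma. Srsf6 averaged 87.4 ± 24.2 CPM in infarcted-side and 81.1 ± 24.4 CPM in non-infarcted-side libraries (0.12, SE 0.05, 95% interval 0.00636 to 0.24, above 0 in 4 of 5 pairs, limma adjusted p = 0.643). Srsf3 averaged 142 ± 56.9 CPM in infarcted-side and 149 ± 54.1 CPM in non-infarcted-side libraries (-0.10, SE 0.06). Most of its difference came from 1 m LEV, where it was -0.40, against -0.15 to 0.05 in the other conditions.

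By limma's moderated test with Benjamini-Hochberg adjustment over 16057 genes, 0 of the 10 members passed 0.05 (adjusted p from 0.588 to 0.995), where 0% of all genes passed and 1221 genes had an unadjusted p under 0.05. EdgeR also called 0 genes (1295 at an unadjusted p under 0.05) and DESeq2 15, with 0 members among them, though it gave several members no adjusted p. Of the members 9 of 10 lay above 0 and their median was 0.04, while 9539 of the 16057 genes lay above 0 with a median of 0.02. Srsf1, Srsf2 and Tra2a, at 0.02, 0.00 and 0.01, changed sign with another scaling. The 10 intervals lay between -0.24 and 0.35. A p that misses the threshold does not show that the sides were alike. Whether libraries of both sides came from 1 animal is not known. These p-values measure how far the side difference varied over the 5 conditions, which differ in time and LEV, with spread shared across genes. Part of that variation may be technical, and the spread between animals of 1 condition was not measured.

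The second comparison set 1 m against 7 d after PT, with LEV and no LEV averaged over both sides. It shares libraries with the differences that chose Srsf3 and Clk2, which were left out of the test. Clk1 stood lower at 1 m. Its 1 m libraries averaged 36.8 ± 2.47 CPM and its 7 d libraries 59.1 ± 9.52 CPM (SD, n = 4 libraries each), lower in 4 of 4 matched pairs. Both sides of a condition may share animals, so the test used condition means (log2 -0.66, SE 0.12, limma adjusted p = 0.000791). The pairs gave -0.98 and -0.54 without LEV, and -0.64 and -0.47 with LEV, for the infarcted and then the non-infarcted side. Clk4, with 61.3 ± 4.06 CPM in 1 m libraries and 76.9 ± 4.91 CPM in 7 d libraries, stood lower in 4 of 4 pairs too (-0.32, SE 0.12), but with an adjusted p of 0.0649 by limma it did not pass.

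Of the 8 members tested, 1 passed, lower at 1 m, while 15.8% of the 16057 genes passed, 5.71% higher and 10.1% lower. A count of 1 in 8 is close to that background and is no result about the members as a group. The other tested SR genes gave log2 differences of 0.22 for Srsf1, -0.18 for Srsf2, -0.24 for Srsf5, 0.16 for Srsf6 and -0.29 for Srsf7, and Tra2a gave -0.27 (limma adjusted p from 0.101 to 0.412). Without a test, Srsf3 averaged 90.2 ± 33.0 CPM at 1 m and 177 ± 14.1 CPM at 7 d (-1.04). Clk2 moved the other way, with 48.0 ± 11.4 CPM at 1 m and 22.5 ± 3.04 CPM at 7 d (1.04). Libraries of the 2 times did not overlap for Srsf1 and Clk2, higher at 1 m (10.8% of genes), and for Srsf2, Srsf3, Srsf7, Clk1, Clk4 and Tra2a, lower at 1 m (19.1% of genes).

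Because the time test kept only 1 residual degree of freedom, its estimate of spread came mostly from other genes. That 1 degree is how far the time difference varied between LEV and no LEV. Its p-values therefore do not measure the spread between animals of 1 condition. Of the 2537 genes called, 917 were higher at 1 m, and with TMM scaling 185 of 334, with edgeR 384 of 657 and with DESeq2 533 of 824. The call of Clk1 held in 17 of the 19 alternatives tried, whose adjusted p ran from 0.000233 to 0.0931. It was lost with TMM scaling and with no filter on low values. Without the libraries lowest in choroid plexus genes, 1 m infarcted and 1 m LEV non-infarcted, Clk1 stood at -0.66 (limma adjusted p = 0.00272). Microglia genes (6 of 6 in the table) summed to 355 to 417 CPM at 1 m and 359 to 728 CPM at 7 d, highest in 7 d infarcted, which was also the library with the most Clk1 (72.8 CPM). Without that library Clk1 stood at -0.58. The split of naive and 1 m from 7 d and 2 m libraries cannot be told apart from time in this comparison. In bulk tissue, fewer cells of a type and less RNA per cell cannot be told apart either.

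**Figure D3:**
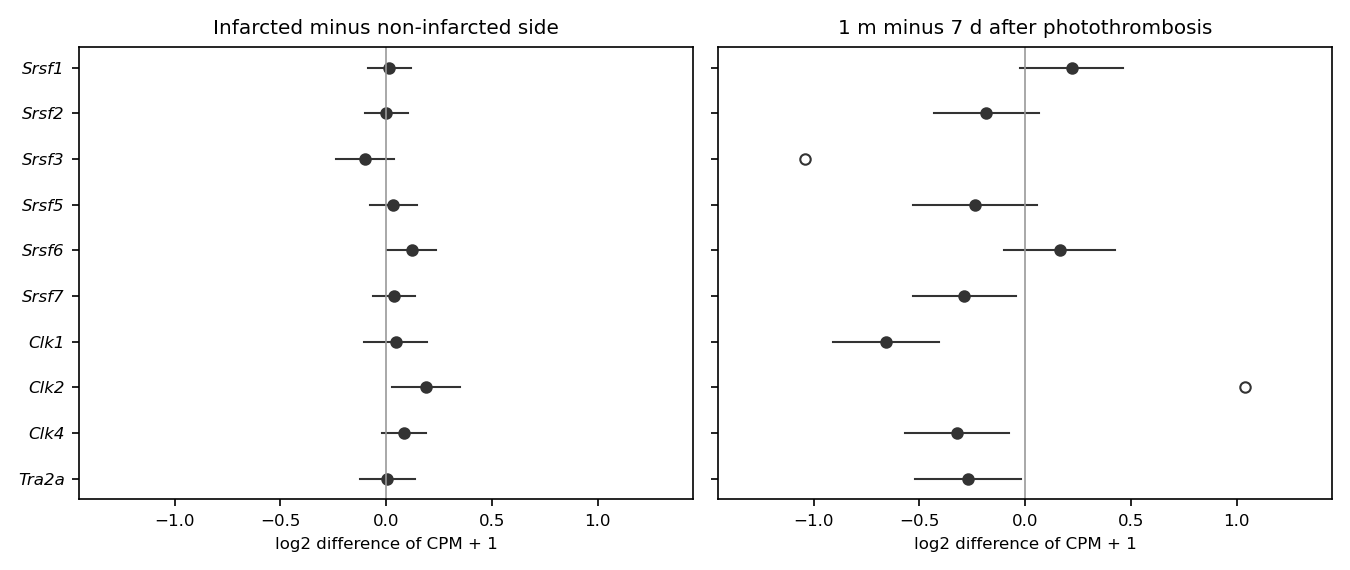
Log2 difference of CPM + 1 (horizontal axes) for each member, infarcted minus non-infarcted side over 5 conditions (left) and 1 m minus 7 d over 4 condition means (right), with 95% intervals from limma as lines and open circles, with no interval, for Srsf3 and Clk2, which were not tested over time. Side differences lie within -0.10 to 0.19, while over time Clk1 stands at -0.66, Srsf3 at -1.04 and Clk2 at 1.04.

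Other genes of the pathway came from lists by function, drawn up with earlier results of these data known, and those named had the smallest p past the threshold. Their counts stand beside 10.1% of all tested genes lower and 5.71% higher, and with TMM scaling, edgeR and DESeq2, as given above, more of the called genes were higher than lower. Among 24 other SR and SR-related protein genes, 6 fell and 1 rose at 1 m against 7 d (median -0.20, against -0.06 over all tested genes). Pnn, encoding the speckle protein pinin, fell (-0.72, SE 0.13, limma adjusted p = 0.000701), with 64.4 to 94.97 CPM at 1 m and 128 to 135 CPM at 7 d. Rsrc2, an arginine and serine rich protein gene (-0.50), and Luc7l, of the U1 snRNP-associated LUC7 family (-0.44), fell as well. Srsf9, an SR protein gene, rose (0.59, limma adjusted p = 0.00143). Srsf9 had 141 CPM in naive, 65.3 to 82.4 CPM at 7 d, 99.9 to 120 CPM at 1 m, and 53.8 and 60.4 CPM at 2 m, the same order of times as Clk2. Tra2b, the paralogue of Tra2a, stood at 93.0 to 105 CPM at 1 m and 85.3 to 97.8 CPM at 7 d, with a log2 difference of 0.13 (SE 0.12, adjusted p = 0.510), which did not pass.

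Of 16 genes of other kinases, phosphatases and the importer of SR proteins, 1 rose and 2 fell, close to the shares over all genes. Dyrk2, a kinase of the DYRK family related to the CLKs, rose (0.86, SE 0.13, adjusted p = 8.5e-05 by limma). It had 93.5 CPM in naive, 22.9 to 26.5 CPM at 7 d, 36.9 to 54.2 CPM at 1 m and 20.7 and 19.99 CPM at 2 m, the same order of times as Clk2 and Srsf9. Cdk11b, a cyclin-dependent kinase gene tied to splicing, fell (-0.61), as did Srpk1, the cytoplasmic SR protein kinase (-0.36, adjusted p = 0.0451). Srpk2, the form abundant in brain, gave -0.21 (adjusted p = 0.231) and Clk3, the CLK gene outside the members, gave -0.09 (SE 0.12, adjusted p = 0.649), and neither passed. Clk3 was the steadiest CLK gene, at 35.2 to 45.7 CPM over the 11 libraries.

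Among wider splicing genes, as among all tested genes (9507 of 16057 below 0, median -0.06), more lay below 0 than above. Of 29 hnRNP genes, which code for RNA-binding proteins that often oppose SR proteins, 9 fell and 2 rose. In all, 22 of the 29 lay below 0 (median -0.14). Pcbp2 (-0.82), Pcbp1 (-0.66) and Tardbp (-0.54) fell, and Matr3, a nuclear matrix protein gene, rose (0.49). Of 39 core spliceosome genes tested, out of 40, 10 fell and 2 rose, and 31 lay below 0 (median -0.21). Sf3b3 of the U2 snRNP (-0.77), Cdc5l (-0.62) and the helicase gene Snrnp200 (-0.61) fell, and Snrpd2 of the Sm ring rose (0.65). A further list held 27 genes of families that include tissue-restricted splicing regulators, though not every gene in it is restricted. Of the 24 tested, 3 fell (Celf4 -0.56, Elavl1 -0.46 and Khdrbs1 -0.35) and 1 rose (Celf6, 0.39). Their median was -0.08, against -0.06 over all tested genes.

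Since CLK transcripts are known to respond to temperature and activity, both sets of genes were read beside them. Of 14 temperature and heat shock genes, 4 fell and 1 rose at 1 m, beside 10.1% lower and 5.71% higher over all tested genes. The chaperone genes Dnaja1 (-0.82), Hspa5 (-0.58) and Hspa8 (-0.62) fell, and the cold-inducible RNA-binding protein genes went both ways, with Rbm3 falling (-0.44) and Cirbp, named after its values were seen, rising (0.43, SE 0.12, limma adjusted p = 0.0166). Of 21 immediate early genes of neuronal activity, Nptx2, a neuronal pentraxin, rose (0.71) and Junb, a subunit of AP-1, fell (-0.49), so that 1 of 21 passed in each direction, below the shares over all genes. Whether either set has a part in the Clk1 difference was not tested. Between sides, limma called 0 of all 16057 genes, and therefore 0 in each of these 7 lists.

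The LEV libraries gave the differences that singled out Srsf3, and are described without a test. At 1 m, Srsf3 had 53.6 CPM with LEV and 120.2 CPM without on the infarcted side (log2 -1.15), and 71.2 CPM with LEV and 116 CPM without on the other side (-0.69). At 7 d it had 166 CPM with LEV and 178 CPM without on the infarcted side (-0.10), and 169 CPM with LEV and 197 CPM without on the other (-0.22). Srsf3 was thus lower with LEV in 4 of 4 pairs, with the larger differences at 1 m. Clk2 stood higher with LEV at 1 m on both sides, by a log2 of 0.53 each, but at 7 d it gave 0.12 and -0.30.

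Among the 6 Srsf members, Srsf6 stood higher with LEV at 1 m, by 0.53 (infarcted side) and 0.38 (non-infarcted side), against -0.06 and 0.06 at 7 d. Srsf5 was lower by -0.40 and -0.31 at 1 m, against 0.05 and 0.14 at 7 d. Clk1 and Clk4 also stood lower with LEV in each pair, but by little at 1 m, where Clk1 gave -0.11 and -0.08 and Clk4 -0.01 and -0.20. The -0.01 of Clk4, on the infarcted side, lay above the median of all genes in that pair (-0.06). TMM scaling shifted that median by 0.07, more than this Clk4 difference, so its sign is not settled. Of all tested genes, 42.5% to 53.5% were higher with LEV in a given pair. The largest Clk1 difference, -0.45, was at 7 d on the infarcted side. Srsf1, Srsf2, Srsf7 and Tra2a lay within -0.23 and 0.14 in all 4 pairs.

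With a difference of at least 0.5 (log2) in 1 direction on both sides as a mark, set after values were seen, Clk2 was higher with LEV at 1 m, as were 1.8% of the 16057 genes, and Srsf3 was lower, as were 1.33%. At 7 d 0 members were higher (0.156% of genes) and 0 lower (0.081%). With a pseudocount of 5 the mean of Clk2 over both sides was 0.49, under the mark. The shares set the scale, and nothing is read from them about members that the same values chose. Over the 10 members the median at 1 m was -0.06 on both sides, against -0.06 and -0.02 over all genes. In the 1 m LEV libraries, the 6 neuronal marker genes summed to 5100.3 and 5339 CPM, against 4489 and 4321 CPM in the 1 m libraries. Slc17a7, the vesicular glutamate transporter of excitatory neurons and 1 of these 6, named here after its values were seen, stood at 1606 and 1603 CPM in 1 m LEV and 781 and 771 CPM in 1 m. The neuronal markers did not all go that way. Snap25, Gad1 and Gad2 also stood higher in 1 m LEV on both sides. Rbfox3 stood lower (228 and 222 CPM, against 305 and 269 CPM in 1 m), and so did Syt1 (1285 and 1386 CPM, against 1501 and 1458 CPM). The 7 hippocampal marker genes stood at 372 and 379 CPM in 1 m LEV and 407 and 365 CPM in 1 m. The part of these markers in the member differences was not tested.

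**Figure D4:**
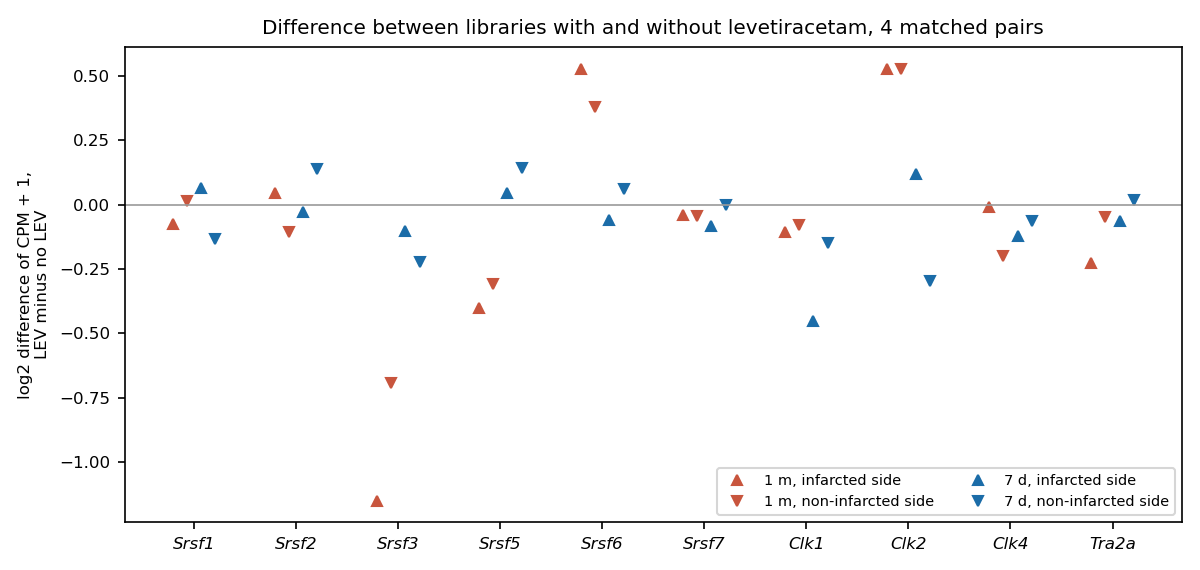
Log2 difference of CPM + 1 between the library with LEV and the matched library without (vertical axis), for the 10 members, in 4 pairs (2 times by 2 sides). At 1 m Srsf3 lies at -1.15 and -0.69 and Clk2 at 0.53 on both sides, while at 7 d the points of Srsf3 and Clk2 lie between -0.30 and 0.12.

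Against the single naive library, Clk2 was lower in 10 of 10 PT libraries, by a log2 of -0.50 to -2.65, again as a description of what chose it. The differences were -1.87 and -1.91 at 7 d, -1.03 and -1.28 at 1 m, and -2.65 and -2.61 at 2 m, and with LEV they were -1.75 and -2.20 at 7 d and -0.50 and -0.75 at 1 m. Srsf7 was above naive by 0.01 to 0.46 in the 10 libraries, which all share the 1 naive library, so their common sign is no support. By the same mark on both sides, Clk2 was lower than naive at 7 d LEV (3.59% of genes lower), 7 d (4.22%), 1 m LEV (3.5%), 1 m (1.76%) and 2 m (7.81%). At 1 m LEV its infarcted side barely passed (-0.503). TMM scaling shifted the median of all genes in that contrast by 0.05, more than the margin of Clk2.

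Srsf3 was above naive by that mark at 7 d LEV (3.07% of genes higher), 7 d (3.48%) and 2 m (8.74%), and below naive at 1 m LEV, at -1.04 and -0.64. At 1 m without LEV it was near naive, with 0.11 and 0.06. Srsf6 was below naive by that mark at 2 m, at -0.72 and -1.03. No member was higher by that mark at 1 m LEV (2.3% of genes) or at 1 m (0.442%). There was 1 naive library, so the spread between naive mice is not known.

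After LEV withdrawal Srsf3 and Srsf5, below naive at 1 m LEV, stood above it, and Srsf6, above naive at 1 m LEV, stood below it. At 2 m withdrawn against 1 m LEV, Srsf3 gave 1.84 on the infarcted and 1.42 on the non-infarcted side, and Srsf5 gave 0.52 and 0.55. By the mark these were the 2 members higher, as were 13% of the genes, but with TMM scaling the mean of Srsf5 over both sides was 0.42, under the mark. Srsf6 gave -1.18 and -1.36 and Clk2 -2.15 and -1.86, the 2 members lower, as were 8.43% of the genes. With TMM scaling the median of all genes shifted by -0.13 (infarcted side) and -0.08 (non-infarcted side). Against 7 d LEV, Srsf6 was the only member past the mark at 2 m, at -0.74 and -1.02, among 3.38% of genes lower, with 0 members among the 1.87% higher. The 1 m LEV and 2 m libraries also held the extremes of the first principal component, and 6 genes of myelinating oligodendrocytes (6 of 6 in the table) summed to 4145 and 4878 CPM at 2 m, against 2939 and 3106 CPM at 1 m LEV. Their part in these differences was not tested. A 2 m library without LEV was not analysed here, so withdrawal and time cannot be told apart.

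Whether the families move together was described by Pearson's r of log2(CPM + 1) between members over the 11 libraries, with no p because the libraries share conditions and are not independent samples. Neither the SR genes nor the kinases moved as 1 group. Of 45 pairs, 21 had r above 0.5 and 14 below -0.5, with a median of 0.26. Srsf2, Srsf3, Srsf5, Srsf7, Clk1, Clk4 and Tra2a ran together, with r of 0.94 for Srsf7 and Clk4, 0.90 for Srsf2 and Srsf7, and 0.89 for Srsf3 and Srsf5. Clk2 and Srsf6 ran together (0.72) and against most of the others, at -0.91 for Clk2 and Srsf7 and -0.76 for Srsf6 and Srsf5. Among the kinases r was 0.80 for Clk1 and Clk4, but -0.58 for Clk1 and Clk2 and -0.84 for Clk2 and Clk4. Clk2 and Srsf3 were chosen by their values in some of these same libraries. Their r values, and the pair counts and medians that include them, were therefore in part set by that choice. The division of the kinases rests on Clk2 and is described only. Srsf1 had r above 0 with 1 of the 9 other members.

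Much of this pattern follows the split of the libraries. With the first principal component, r was 0.95 for Srsf7, 0.93 for Srsf2, Srsf3 and Clk4, and -0.91 for Clk2, and 2.68% to 8.41% of the tested genes were at least as far from 0 as these members. For Srsf5 it was 0.85, for Srsf6 -0.76, for Clk1 0.75, for Tra2a 0.61 and for Srsf1 -0.25, and 16.0% to 80.0% of the tested genes were at least as far from 0. After centring the naive and 1 m libraries, and the 7 d and 2 m libraries, on their own means, 7 of 45 pairs had r above 0.5 and 7 below -0.5, with a median of 0.18. Srsf3 and Srsf5 kept a high value (0.81), and Srsf6 and Clk2 had 0.63. Srsf1 and Srsf6 had -0.84. Among the kinases, Clk1 and Clk4 had 0.18, Clk1 and Clk2 0.51, and Clk2 and Clk4 -0.20. The division of Clk2 from both Clk1 and Clk4 was thus not kept after centring. Over the 11 libraries the median r of a member with the other 9 ran from -0.69 for Clk2, -0.57 for Srsf6 and -0.33 for Srsf1 to 0.77 for Srsf3, while the median r of a member with all tested genes ran from -0.20 to 0.23. After centring it ran from -0.33 for Srsf6 to 0.29 for Srsf5, and with all tested genes from -0.09 to 0.14.

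**Figure D5:**
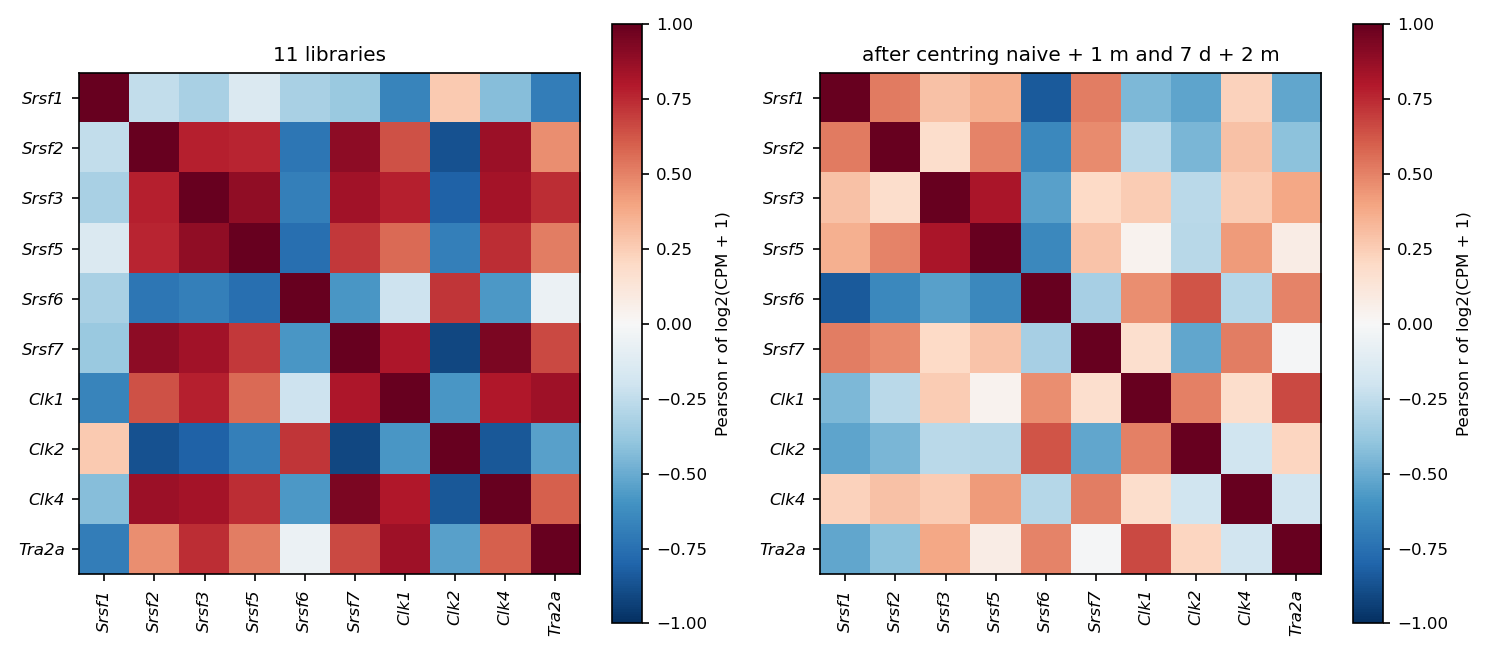
Pearson's r of log2(CPM + 1) between the 10 members (both axes) over the 11 libraries (left) and after centring the naive and 1 m libraries, and the 7 d and 2 m libraries, on their own means (right), with red for r above 0 and blue below. On the left Clk2 and Srsf6 are blue against most other members (-0.91 for Clk2 and Srsf7), and on the right Srsf3 with Srsf5 (0.81) and Srsf1 with Srsf6 (-0.84) are the pairs farthest from 0.

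The genes most like Srsf3 after that centring, among tested genes averaging at least 5 CPM, were Fbf1, a gene of centriolar appendages (r = 0.98, and 0.99 over the 11 libraries), Gm21992 (0.98 and 0.99) and Nme6, of the nucleoside diphosphate kinase family (0.98 and 0.93). Fbf1 had 34.3 and 42.7 CPM in 1 m LEV, against 52.4 CPM in each 1 m library. For Clk2 they were Ralgds, an exchange factor of Ral GTPases (0.96 and 0.99), Tab2, an adaptor of the kinase TAK1 (0.95 and 0.98), and Mbd2, a reader of methylated DNA (0.95 and 0.97). For Clk1 they were the globin gene Hbb-bt (0.91), Dag1, encoding dystroglycan (0.90), and Hacd3, an enzyme of long-chain fatty acid synthesis (0.89). Over the 11 libraries without centring Hacd3 had r = 0.95 with Clk1, but Hbb-bt had -0.16 and Dag1 -0.22. These are the highest of the values of all genes considered over 11 libraries, and they describe likeness in these libraries.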

How the data were processed

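RNA of the mouse hippocampus was measured by CAGE in 11 libraries, grouped by their labels into 11 groups of 1. Per the labels' protocols, cDNA was made with random primers and capped RNA was selected by cap-trapping. The authors deposited CPM per gene, and each value was a whole number of reads (tolerance 0.0001) of its library total, so reads were recovered from the steps. The tools HISAT2 2.0.5, BWA 0.7.17 and DESeq2 1.20.0 and the build GRCm38 are named per the submitters' processing notes. Their roles, the annotation and the counting rule were not stated in the sources used here. Of the reads, 93.0% to 96.1% fell in listed genes. Intervals and the limit that a count of 0 allows (3 reads) cover counting error only.

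Values were taken as log2(CPM + 1), which understates changes of low genes. With limma 3.58.1 in R 4.3.3 (lmFit, eBayes with a trend), 16057 genes averaging at least 1 CPM were tested at a Benjamini-Hochberg threshold of 0.05. Sides were compared over 10 PT libraries, blocked by condition (residual degrees of freedom 4, prior 8.01), and times on 4 condition means with a LEV term (1 residual, prior 21.59). Both fits were also run on simulated counts with known changes, drawn without differences between conditions, a split of libraries or shared animals. Those runs therefore do not show how the fits behave under the split seen here. Because the values were CPM, the count tests (edgeR 4.0.16 and DESeq2 1.42.0, on recovered reads) were alternatives, beside TMM or quantile scaling, other pseudocounts and filters, and left-out libraries. The members, gene lists and tests were chosen with earlier results of these data known. Named were all members, Clk3, Tra2b, Srpk1 and Srpk2, up to 4 genes per list with the smallest p past the threshold, and the 3 genes most like Srsf3, Clk1 and Clk2. Coordinates are from GENCODE M21, to which 22335 of 22377 identifiers matched, and promoters from RefSeq GRCm38.p6.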

Additional observations from a re-analysis of the deposited data

Results flagged for a closer look

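Among the 5 libraries of the infarcted side, Srsf5 stood far from the others at 459 CPM in 1 m LEV, against 606 to 659.6 CPM in the remaining libraries of that side. Among the 4 libraries at 1 m, Clk4 was at 55.2 CPM in 1 m LEV non-infarcted, against 63.0 to 63.6 CPM in the others, so that 1 library lowered its 1 m mean. In all, 40 groups of values were examined for such libraries, and chance marks about 1 in 20 of them.

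The difference of Srsf5 with LEV pointed down in both pairs at 1 m and up in both pairs at 7 d. The mean log2 difference at 1 m minus that at 7 d was -0.45, and this difference between the times was not tested.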

How the results depend on the processing

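Between sides, the sign of members close to 0 depended on scaling. With TMM scaling, edgeR and DESeq2, Srsf1 was -0.00962, -0.0104 and -0.0115, Srsf2 -0.0234, -0.0239 and -0.0248, and Tra2a -0.0193, -0.0218 and -0.0222 (-0.0038 with quantile scaling). When pairs were left out in turn, Srsf1 ranged from -0.0154 to 0.0387, Srsf2 from -0.0240 to 0.0298, Tra2a from -0.0483 to 0.0442 and Clk1 from -0.0239 to 0.0927, the last below 0 only without the 7 d pair. DESeq2 called 15 genes between sides, and leaving out pairs gave 0 to 50 genes, the 50 without the 1 m pair. Over time, TMM scaling called 334 genes, no filter 24, edgeR 657, DESeq2 824 and 8 libraries taken as independent 4991, against 2537. Leaving out a library gave 1061 (without 1 m infarcted) to 2392 genes, and 1280 without 7 d LEV non-infarcted. Members called over time were 0 with TMM scaling and 0 with no filter (Clk1 adjusted p = 0.0578 and 0.0931 by limma), 6 with 8 libraries as independent, and 1 to 2 with a library left out, where Clk4 passed without 1 m LEV infarcted (adjusted p = 0.0356). The member median with LEV was -0.06, -0.0385 with TMM scaling and -0.0785 to -0.0352 with a library left out. After withdrawal it was 0.30, and 0.18 with TMM scaling. For the lost calls and moved values the cause was not tested. The comparisons without 1 m infarcted and 1 m LEV non-infarcted, or without both 1 m pairs between sides, were added after the data were seen and kept each count within 1.5 times. By replicate number, no paired analysis was possible because each group held 1 library. Sides were instead paired within conditions, as the block of the side test.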
